A study of Mus musculus with 6 samples.

Results

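The 10 genes described here encode receptors for extracellular nucleotides and adenosine, and cell-surface enzymes that break nucleotides down, in ILC2s (group 2 innate lymphoid cells) from the mouse lung. They are the rows of the deposited count table with the symbols P2ry1, P2ry10, P2ry14, P2rx4, P2rx7, Adora2a, Adora2b, Entpd1, Nt5e and Cd38, 10 of the table's 16588 genes. The genes were chosen by their levels in the 2 groups of libraries, with the difference between the groups already known. Their levels and differences are therefore given as a description, with no test, and all tests below are on other genes. The 10 genes had 359 (P2rx7) to 9192 (P2ry10) counts over the 6 libraries, where the lowest total in the table is 10.

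RNA was sequenced from 3 libraries of mice labelled C57BL/6 (wild type, WT) and 3 libraries of mice labelled Cnr2 KO, a knockout of the gene for the cannabinoid receptor CB2, which are called KO-labelled below. Every mouse had received 0.5 µg of recombinant mouse IL-33 intranasally on each of 3 days, so both groups hold activated cells. Lung cells were taken on day 4, ILC2s were sorted and kept in culture for 18 h, and cDNA was made from 10 pg of RNA per library. The sources used here do not give the age or sex of the mice, the background strain of the knockout or any pooling of animals. The series title names adipose tissue, while all sample labels name lung. All 12 ILC2 markers checked, among them Gata3, Il1rl1 and Il5, were counted, with a summed level of 13287 to 13841 CPM (counts scaled to library size) in WT and 12245 to 13347 CPM in the KO-labelled libraries. Behind these sums, which are mostly Il5 and Il2ra, 8 of the 12 were higher and 3 lower without overlap, against 34.1% and 34.8% of all genes tested below. Gata3 went from 279.0 to 303.8 CPM up to 1052 to 1084 CPM, and Il2ra from 5324 to 5576 CPM down to 2484 to 2831 CPM. Thy1 was the lowest of the 12, at 0.845 to 0.968 CPM in WT and 3.44 to 3.88 CPM in the KO-labelled libraries. Total counts were 17867541 to 19399819 in 5 libraries and 129617689 in WT replicate 2. Cnr2 itself was not lower in the libraries labelled knockout: WT replicates 1, 2 and 3 gave 76, 503 and 60 counts, whereas the KO-labelled libraries gave 147, 139 and 135 (2.01-fold higher, edgeR adjusted p = 2.11e-05). The table has 1 value per gene, so a deletion of part of Cnr2 cannot be checked, and the groups are called by their labels throughout.

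Cells that are stressed or dying release ATP, and ATP outside the cell acts as a danger signal. It opens P2X receptors, which are ATP-gated cation channels, and nucleotides act on P2Y receptors, which couple to G proteins. The ectonucleotidase CD39 (Entpd1) cuts ATP and ADP to AMP, CD73 (Nt5e) cuts AMP to adenosine, and adenosine acts on receptors such as those encoded by Adora2a and Adora2b, which raise cyclic AMP and mostly dampen lymphocytes. CD38 consumes NAD outside the cell. One of the 10, P2ry10, is a member of the P2Y family by sequence but is known as a receptor for lysophosphatidylserine, a lipid.

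Levels are CPM scaled by the trimmed mean of M values (TMM). Differences are log2 fold changes of the KO-labelled libraries over WT, from edgeR's fit over all 12150 genes that passed its filter on low counts, with a standard error (SE). All 10 genes passed that filter. In 8 of them the groups of 3 libraries did not overlap, against 68.9% of all tested genes. In 6 of them (P2ry1, P2ry10, P2ry14, P2rx7, Nt5e and Cd38) every KO-labelled library lay above every WT library, against 34.1% of all tested genes. In P2rx4 and Adora2a every KO-labelled library lay below every WT library, against 34.8% of all tested genes. The groups overlapped in Adora2b and Entpd1. At least 2-fold higher were 5 of the 10, against 9.02% of all tested genes, and 0 were at least 2-fold lower, against 7.6%. The median log2 fold change was 1.27 over the 10 genes and 0.01 over all tested genes. These shares follow from how the genes were picked, and nothing is read from them. In RNA from whole sorted populations, more cells carrying a transcript and more transcript per cell cannot be told apart.

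**Figure D1:**
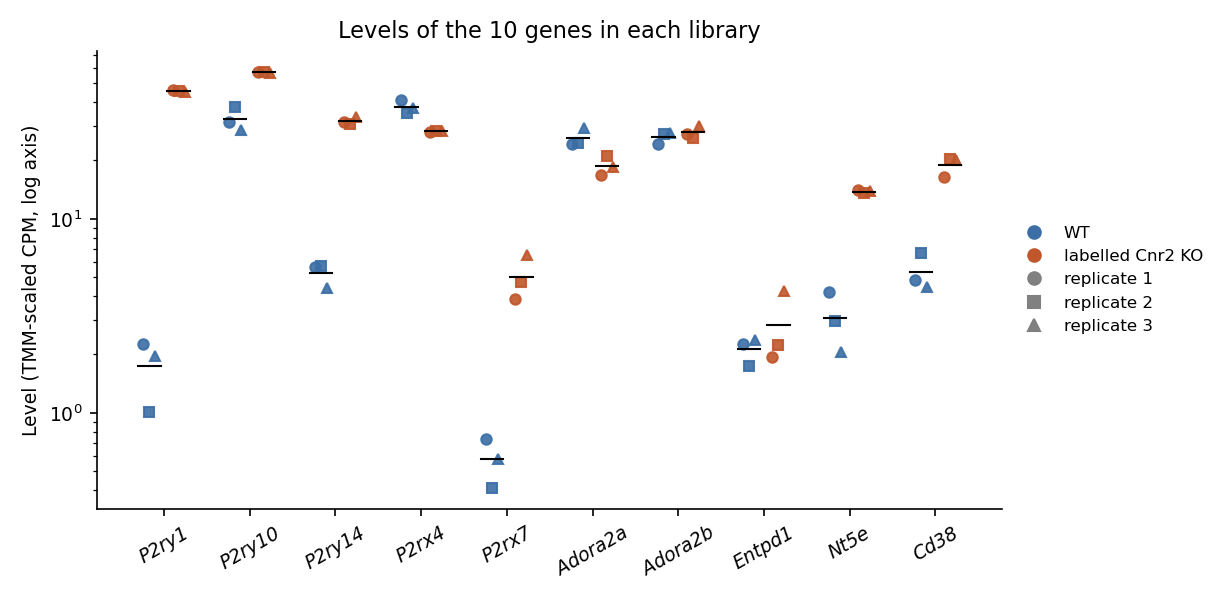
Level of each of the 10 genes (TMM-scaled CPM, log axis) in the 3 WT libraries and the 3 libraries labelled Cnr2 KO, with the marker shape giving the replicate number and black bars the group means. P2ry1 has the widest gap, from 1.01 to 2.26 CPM in WT to 45.1 to 46.3 CPM, while Adora2b and Entpd1 overlap.

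The 3 P2Y-family receptors among the 10 were all higher in the KO-labelled libraries, by very different amounts. P2ry1, the G protein-coupled receptor for ADP best known from platelets, is at chromosome 3, 61002795 to 61008982 on the plus strand (GRCm38, ENSMUSG00000027765.6). Its level was 2.26, 1.01 and 1.96 CPM in WT replicates 1, 2 and 3 and 46.3, 45.3 and 45.1 CPM in replicates 1, 2 and 3 of the KO-labelled libraries. The WT libraries were all low, with the deepest library the lowest, and the other group was high and even. Group means were 1.74 ± 0.649 and 45.6 ± 0.634 CPM (SD, n = 3 each), a log2 fold change of 5.05 (SE 0.17), or 33.2-fold. Without WT replicate 2 the difference was 21.5-fold (log2 fold change 4.43). Of the 12150 tested genes, 17, P2ry1 included, had a log2 fold change at least as high. Its exons share 992 bases with Gm37035, an antisense transcript listed at 0 CPM for WT, with a mean of 0.826 CPM for the KO-labelled libraries. The strand setting of the counting is not stated, so reads in those bases could come from either. Markers of platelets and megakaryocytes, of which 4 of 6 were counted, summed to 0.158 to 0.681 CPM in WT and 0.616 to 1.44 CPM in the KO-labelled libraries.

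P2ry14, the receptor for UDP-glucose and other UDP-sugars, was second among the P2Y genes. It lies at chromosome 3, 59113855 to 59153618 on the minus strand (ENSMUSG00000036381.13), and its start is 1.85 Mb from that of P2ry1. Its level was 5.67, 5.71 and 4.39 CPM in WT replicates 1, 2 and 3 and 31.4, 30.9 and 33.6 CPM in the KO-labelled libraries. All WT libraries were low and all libraries of the other group were high, a log2 fold change of 2.57 (SE 0.11), or 5.93-fold. P2ry14 lies within Med12l, a gene on the opposite strand that shares 0 of its exonic bases and had mean levels of 6.29 (WT) and 11.99 CPM.

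P2ry10, the lysophosphatidylserine receptor at chromosome X, 107088492 to 107104974 on the plus strand (ENSMUSG00000050921.12), was well counted in both groups. Its level was 31.4, 37.5 and 28.8 CPM in WT and 57.4, 57.3 and 56.2 CPM in the KO-labelled libraries. The groups did not overlap, and the difference was 1.72-fold (log2 fold change 0.78, SE 0.08), far smaller than for the other P2Y genes.

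The 300 bases around the annotated start of these 3 genes (250 before, 50 after) are shown because the genes moved in one direction from very different WT levels. The sequences are from RefSeq on GRCm38.p6, whose table matched 9 of the 10 genes. Where RefSeq gives several starts, the one nearest the GENCODE gene start was taken. Capitals mark matches, on either strand, to 4 motifs. The motif for AP-1 factors was TGACTCA. The motif for GATA factors was AGATAA. For the cyclic AMP response element it was TGACGTCA, and its half-site, which the full element contains, was searched for as TGACG.
P2ry1: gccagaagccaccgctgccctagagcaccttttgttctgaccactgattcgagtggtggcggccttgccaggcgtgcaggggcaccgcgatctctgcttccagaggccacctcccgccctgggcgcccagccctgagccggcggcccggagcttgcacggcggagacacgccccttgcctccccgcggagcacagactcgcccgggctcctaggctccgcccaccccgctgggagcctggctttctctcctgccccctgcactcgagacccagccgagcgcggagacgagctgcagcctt
P2ry14: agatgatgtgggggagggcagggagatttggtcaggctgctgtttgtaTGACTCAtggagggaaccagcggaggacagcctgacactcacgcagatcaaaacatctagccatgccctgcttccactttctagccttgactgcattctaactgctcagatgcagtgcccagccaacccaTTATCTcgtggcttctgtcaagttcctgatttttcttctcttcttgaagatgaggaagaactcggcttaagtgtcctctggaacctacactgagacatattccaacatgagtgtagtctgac
P2ry10: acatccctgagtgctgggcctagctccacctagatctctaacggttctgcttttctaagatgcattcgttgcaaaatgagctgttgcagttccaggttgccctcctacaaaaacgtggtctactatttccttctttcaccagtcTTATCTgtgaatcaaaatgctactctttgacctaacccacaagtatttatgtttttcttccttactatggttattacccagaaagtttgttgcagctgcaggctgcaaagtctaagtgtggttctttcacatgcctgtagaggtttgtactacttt

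The P2ry1 window (chr3:61002535-61002834, plus strand) is GC-rich, with 70.7% G or C and 25 CpG dinucleotides against medians of 52.7% and 7 over 32851 promoter windows of this length, and holds 0 matches to the motifs. The P2ry14 window (chr3:59153443-59153742, minus strand) has 49.3% G or C and 4 CpG, the P2ry10 window (chrX:107088242-107088541, plus strand) 42.3% and 3 CpG. Both of these hold a GATA match, and the P2ry14 window also holds an AP-1 match. AP-1 matches are present in 5.2% and GATA matches in 11.2% of all such windows. Over the 9 genes with a window, AP-1 matches were found in 2 (P2ry14 and P2rx7) and GATA matches in 3 (P2ry14, P2ry10 and Cd38). The half-site of the cyclic AMP response element, present in 20.8% of all windows, was found in P2rx4 and Entpd1. No window of these genes held the full element, present in 1.79% of all windows. These counts were not tested. A match is a run of letters, not a shown binding site.

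The other P2Y-family receptors moved in both directions. Of 10 listed, 7 were counted and 5 tested, and 2 of these were higher and 2 lower in the KO-labelled libraries (edgeR, adjusted p under 0.05 over all tested genes), where 66.3% of all tested genes were called, 33.1% higher and 33.2% lower. P2ry2, the receptor for ATP and UTP, fell from 41.5 ± 1.51 to 13.2 ± 0.353 CPM, 3.12-fold (adjusted p = 1.87e-12). Gpr34 and P2ry10b rose 2.05-fold and 1.77-fold (adjusted p = 3.05e-06 and 5.27e-03). These are receptors for lysophosphatidylserine, as is Gpr174, which stood at 3.39 ± 0.947 and 4.31 ± 0.422 CPM and did not pass (adjusted p = 0.177). P2ry10b and Gpr174 start 60.4 and 167.4 kb from P2ry10. Gpr171, whose start is 51.8 kb from that of P2ry14, fell 1.54-fold, from 331.9 ± 10.2 to 215.3 ± 9.17 CPM (adjusted p = 9.83e-10), while P2ry14 was higher in the same libraries. P2ry12, the platelet and microglial ADP receptor in the same cluster, had 72 counts in WT and 7 in the KO-labelled libraries and was not tested, nor was P2ry6, the UDP receptor, with 18 and 7 counts.

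The 2 P2X channels, neighbours on chromosome 5, differed in opposite directions. P2rx7, the channel that opens at high ATP and can trigger inflammasome assembly and cell death, was barely counted in WT. P2rx7 (ENSMUSG00000029468.17, chromosome 5, 122643911 to 122691432, plus strand) rested on 14, 53 and 11 counts for WT and on 75, 89 and 117 for the KO-labelled libraries. This gave 0.735, 0.410 and 0.581 CPM in WT against 3.85, 4.75 and 6.49 CPM, with each KO-labelled library above each WT library. The log2 fold change was 3.28 (SE 0.33), or 9.68-fold, with the widest SE of the 10 genes, and WT replicate 2 was again the lowest library. P2rx4, a channel that opens at lower ATP and is found in many leukocytes, starts 63.6 kb away (ENSMUSG00000029470.15, chromosome 5, 122707544 to 122729738, plus strand). P2rx4 stood at 41.0, 35.0 and 37.1 CPM in WT and 27.9, 28.5 and 28.4 CPM in the KO-labelled libraries, so here the WT libraries were the high ones. The difference was 1.33-fold (log2 fold change -0.41, SE 0.08).

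The windows around the 2 starts are shown because these adjacent genes differed in opposite directions, with the same motifs in capitals.
P2rx7: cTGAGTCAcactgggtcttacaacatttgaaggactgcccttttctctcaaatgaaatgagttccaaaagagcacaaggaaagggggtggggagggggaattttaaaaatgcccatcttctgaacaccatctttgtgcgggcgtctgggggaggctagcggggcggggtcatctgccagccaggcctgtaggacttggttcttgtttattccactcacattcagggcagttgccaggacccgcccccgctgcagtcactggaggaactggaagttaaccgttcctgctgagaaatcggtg
P2rx4: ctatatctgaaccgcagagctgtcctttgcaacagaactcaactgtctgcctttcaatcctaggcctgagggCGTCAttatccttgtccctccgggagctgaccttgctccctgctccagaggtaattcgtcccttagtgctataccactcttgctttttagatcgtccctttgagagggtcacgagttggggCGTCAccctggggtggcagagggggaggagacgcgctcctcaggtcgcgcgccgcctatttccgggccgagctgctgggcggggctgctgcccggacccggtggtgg
The P2rx7 window (chr5:122643677-122643976, plus strand) holds an AP-1 match and 8 CpG, and the P2rx4 window (chr5:122707294-122707593, plus strand) 2 half-sites of the cyclic AMP response element and 18 CpG. That half-site is present in 20.8% of all windows. The 5 other P2X genes were not tested: P2rx1 had 74 counts in WT and 16 in the KO-labelled libraries, P2rx3 had 24 and 3, and the remaining 3 were not analysed here.

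In each library the ratio of P2rx4 to P2rx7, in CPM per kb of exon, was 47.4, 72.6 and 54.3 in WT and 6.15, 5.09 and 3.72 in the KO-labelled libraries. P2rx4 was thus the higher of the channels in all 6 libraries, and the distance between them was far smaller in the KO-labelled libraries.

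Of the adenosine receptors, Adora2a was modestly lower in the KO-labelled libraries and Adora2b differed little. Adora2a, the receptor of high affinity (ENSMUSG00000020178.6, chromosome 10, 75316877 to 75334784, plus strand), stood at 24.3, 24.6 and 29.2 CPM in WT and 16.7, 21.1 and 18.6 CPM in the KO-labelled libraries. The groups were apart, with the highest KO-labelled library close under the lowest WT library. The difference was 1.38-fold (log2 fold change -0.46, SE 0.10). Adora2b, the receptor of low affinity (ENSMUSG00000018500.2, chromosome 11, 62248984 to 62266453, plus strand), stood at 24.4, 27.5 and 27.8 CPM in WT and 27.5, 26.2 and 30.1 CPM in the KO-labelled libraries. These values overlapped (log2 fold change 0.07, SE 0.08). The ratio of Adora2a to Adora2b per kb of exon was 0.600, 0.540 and 0.633 in WT and 0.367, 0.486 and 0.372 in the KO-labelled libraries, below 1 in every library. Adora1 and Adora3, the receptors that lower cyclic AMP, were not analysed here.

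Of the enzymes, Nt5e and Cd38 were higher in the KO-labelled libraries, and Entpd1 was low in both groups. Entpd1, which encodes CD39 (ENSMUSG00000048120.16, chromosome 19, 40612366 to 40741602, plus strand), had 38 to 225 counts per library. Its level was 2.26, 1.74 and 2.38 CPM in WT and 1.95, 2.24 and 4.27 CPM in the KO-labelled libraries. The groups overlapped, and replicate 3 of the latter stood apart from the other 5 libraries. The log2 fold change was 0.45 (SE 0.30), and 0.02 without that replicate.

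Nt5e, which encodes CD73 (ENSMUSG00000032420.8, chromosome 9, 88327197 to 88372092, plus strand), stood at 4.20, 2.97 and 2.06 CPM in WT and 14.1, 13.5 and 13.9 CPM in the KO-labelled libraries. The WT libraries were low and uneven and the others high and even, with a log2 fold change of 2.18 (SE 0.18), or 4.52-fold. The ratio of Entpd1 to Nt5e per kb of exon was 0.829, 0.903 and 1.78 in WT and 0.214, 0.256 and 0.475 in the KO-labelled libraries. Entpd1 was thus below Nt5e in every KO-labelled library. In WT the order of the enzymes depended on the length used: with the longest transcript the ratio was 0.509, 0.555 and 1.09, a mean of 0.718 in place of 1.17.

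**Figure D2:**
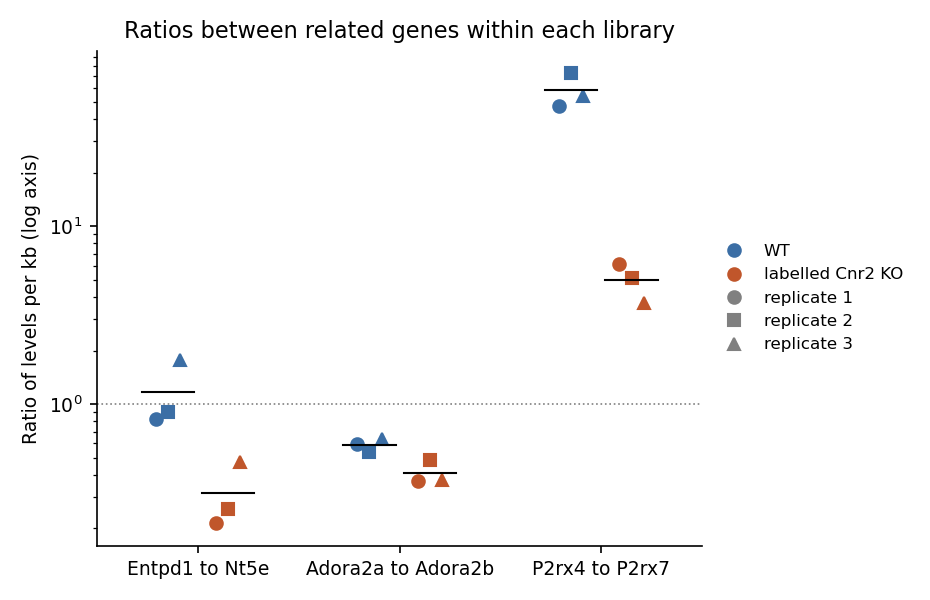
Ratio of CPM per kb of merged exons between related genes in each library (log axis), with black bars at group means and a dotted line at equal levels. P2rx4 to P2rx7 goes from 47.4 to 72.6 in WT to 3.72 to 6.15 in the KO-labelled libraries. All 3 ratios are lower there without overlap, as were 34.8% of single tested genes. The ratios are made from the levels by which the genes were chosen, so nothing further is read from them.

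Cd38, the NAD glycohydrolase that also makes the calcium messenger cyclic ADP-ribose (ENSMUSG00000029084.5, chromosome 5, 43868553 to 43912375, plus strand), stood at 4.83, 6.68 and 4.44 CPM in WT and 16.4, 20.3 and 20.2 CPM in the KO-labelled libraries. WT replicate 2 was the highest of the low group. The difference was 3.37-fold (log2 fold change 1.75, SE 0.15). Its relative Bst1, which starts 49.7 kb away, was not analysed here, and the list of 8 other enzymes that use NAD outside the cell, which includes it, held 0 tested genes.

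**Figure D3:**
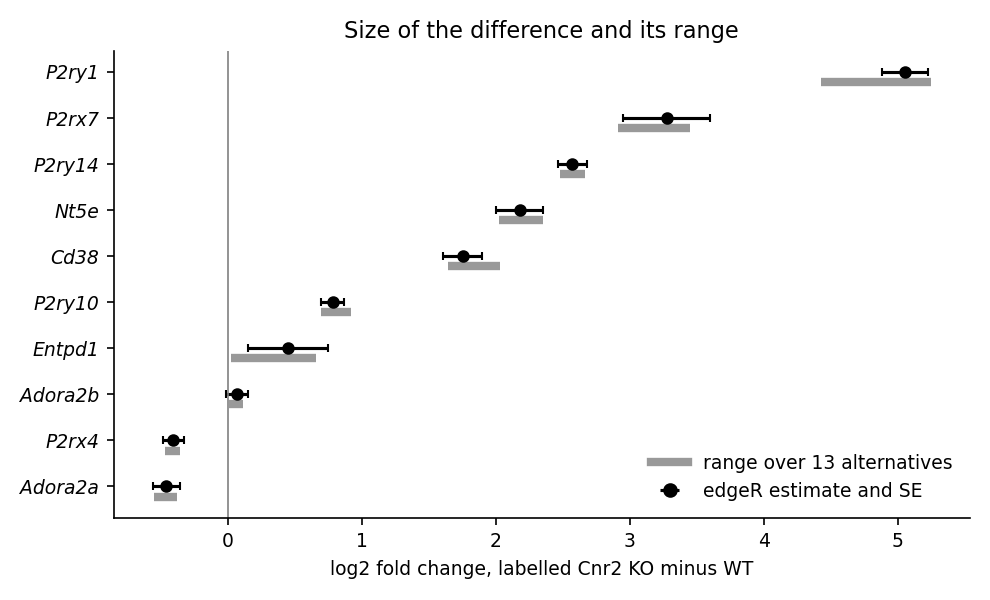
Log2 fold change of the KO-labelled libraries over WT for the 10 genes (points, with SE as bars) and, in grey, its range over 13 alternative analyses. The range of P2ry1 runs from 4.43 to 5.25, and those of Entpd1 and Adora2b come down to 0.02 and 0.01.

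Several of these genes are also made by other cell types, and some markers of such cells were higher in the same libraries. T cell markers, of which 4 of 8 were counted, summed to 6.34 to 6.88 CPM in WT and 19.4 to 22.3 CPM in the KO-labelled libraries, mostly Cd3g. B and plasma cell markers (2 of 6) summed to 16.1 to 17.2 and 25.1 to 26.3 CPM, nearly all Cd79b. Macrophage and monocyte markers (3 of 8) summed to 0 to 0.0852 and 0.411 to 1.72 CPM, with Adgre1 at 0 counts in WT. Dendritic cell markers (3 of 6, mostly Xcr1) summed to 9.72 to 12.3 and 20.1 to 25.6 CPM, mast cell, basophil and eosinophil markers (4 of 8, mostly Kit) to 96.9 to 106.9 and 169.0 to 184.3 CPM, epithelial markers (4 of 6, mostly Epcam) to 12.6 to 27.1 and 45.7 to 51.6 CPM, and erythroid markers (2 of 5) to 0.735 to 1.27 and 5.13 to 6.27 CPM. Endothelial markers (2 of 6, nearly all Pecam1) were lower, at 106.1 to 114.4 and 39.3 to 40.3 CPM. Several lists held markers of both directions. The epithelial keratin Krt18 went from 2.01 to 5.36 CPM in WT down to 0.924 to 1.61 CPM, and Krt8 had 411 counts in WT, where it ranged from 0 to 8.61 CPM, and 0 in the other group. The basophil protease Mcpt8 was lower (1.42 to 1.81 against 0.257 to 0.665 CPM), as was the dendritic cell factor Zbtb46 (0.410 to 0.788 against 0.111 to 0.320 CPM). NK cell, neutrophil and fibroblast markers overlapped between the groups. The part of any of these cells in the levels of the 10 genes was not tested.

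Set by level per length, the 10 genes fell into a different order in the 2 groups. In WT, Adora2b was highest at 14.4 ± 1.02 CPM per kb, followed by P2ry10 (10.9 ± 1.5), Adora2a (8.50 ± 0.902), P2rx4 (5.37 ± 0.432) and Cd38 (1.37 ± 0.308). P2ry14, P2ry1, Entpd1 and Nt5e followed at 0.475 to 0.358 CPM per kb, with each overlapping the next in its range over libraries, and P2rx7 was lowest at 0.0964 ± 0.0272. In the libraries labelled Cnr2 KO the order was P2ry10 (19.1 ± 0.221), Adora2b (15.1 ± 1.09), P2ry1 (10.6 ± 0.148), Adora2a (6.14 ± 0.714), Cd38 (4.88 ± 0.569), P2rx4 (4.02 ± 0.0449), P2ry14 (2.89 ± 0.129) and Nt5e (1.61 ± 0.0328), then P2rx7 (0.843 ± 0.224) and Entpd1 (0.506 ± 0.226), which overlapped. P2ry1 moved from the seventh to the third place and Entpd1 from the eighth to the tenth. With the longest transcript as the length, P2rx4 stood above Adora2a and Cd38 in the KO-labelled libraries, and the order of the low WT genes changed.

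**Figure D4:**
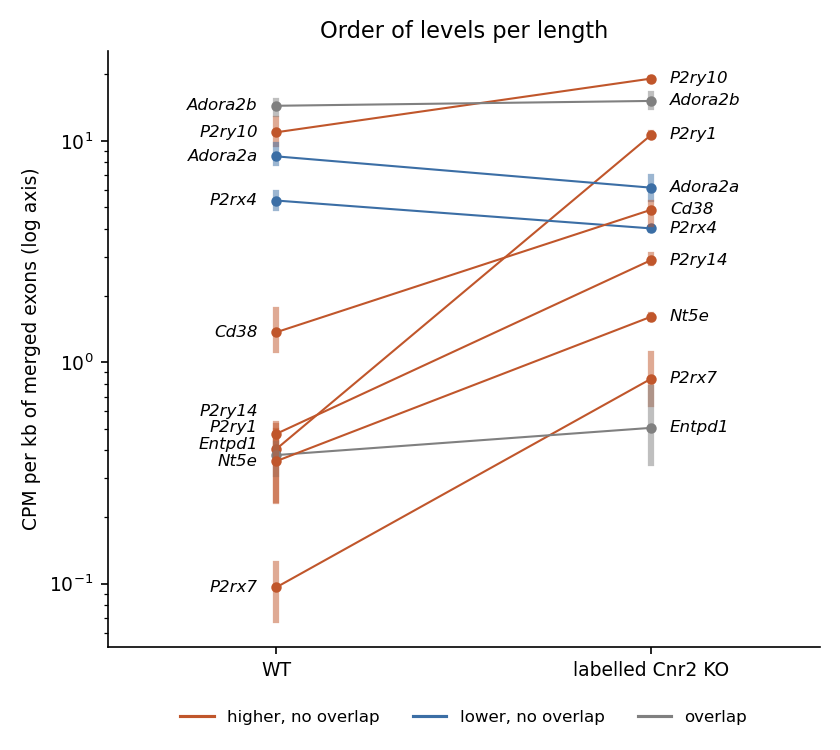
Mean level of each gene in CPM per kb of merged exons (log axis) in WT and in the KO-labelled libraries, with bars spanning the 3 libraries of a group and colours giving whether the groups overlap. P2ry1 crosses 4 other genes, from 0.406 to 10.6 CPM per kb, and Adora2b is nearly level.

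The spread between libraries also differed by gene. The coefficient of variation in WT ran from 7.12% (Adora2b) to 37.2% (P2ry1), and in the KO-labelled libraries from 1.12% (P2rx4) to 44.8% (Entpd1). P2ry1 went from 37.2% in WT to 1.39% and Nt5e from 34.9% to 2.04% in the KO-labelled libraries, where their levels were higher. P2rx7, whose level was also higher there, went only from 28.2% to 26.6%.

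Profiles were compared with those of 9101 candidate genes whose mean over all 6 libraries was at least 5 CPM. The genes most like P2ry1 were Mndal, Pcsk1 and Anxa1, with root mean square differences of 0.24, 0.32 and 0.34 in centred log2 CPM. The level of Mndal was 0.423 ± 0.262 CPM for WT against 15.4 ± 2.04 CPM in the other group. That of Anxa1 was 4.09 ± 1.72 CPM for WT against 85.1 ± 4.31 CPM. Mndal and Anxa1 thus reached 5 CPM only through the KO-labelled libraries. Likeness to P2ry1 includes the group difference already known when P2ry1 was chosen, so nothing is read from it. The genes most like Adora2a were Wdr83os, Selenow and Mrps11, at 0.05, 0.05 and 0.06. By Pearson correlation, 0 of the 3 for P2ry1 and 1 of the 3 for Adora2a were the same, so these names depend on the measure.

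Around these 10 genes, most of the listed genes of nucleotide release, breakdown and signalling passed the test, in both directions. Of 83 symbols listed, 62 were counted and 51 tested, and 22 were higher and 18 lower in the KO-labelled libraries, 78.4% of those tested against 66.3% of all tested genes, with a median log2 fold change of 0.13. All lists were chosen with earlier results of these data known, so nothing is read from this share or from the counts of each list below. Entpd4 and Entpd4b count as 2 of the 18, although their reads cannot be told apart. No label ties the replicates to separate animals or cultures, so p-values here reflect the spread between libraries, which may be technical.

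**Figure D5:**
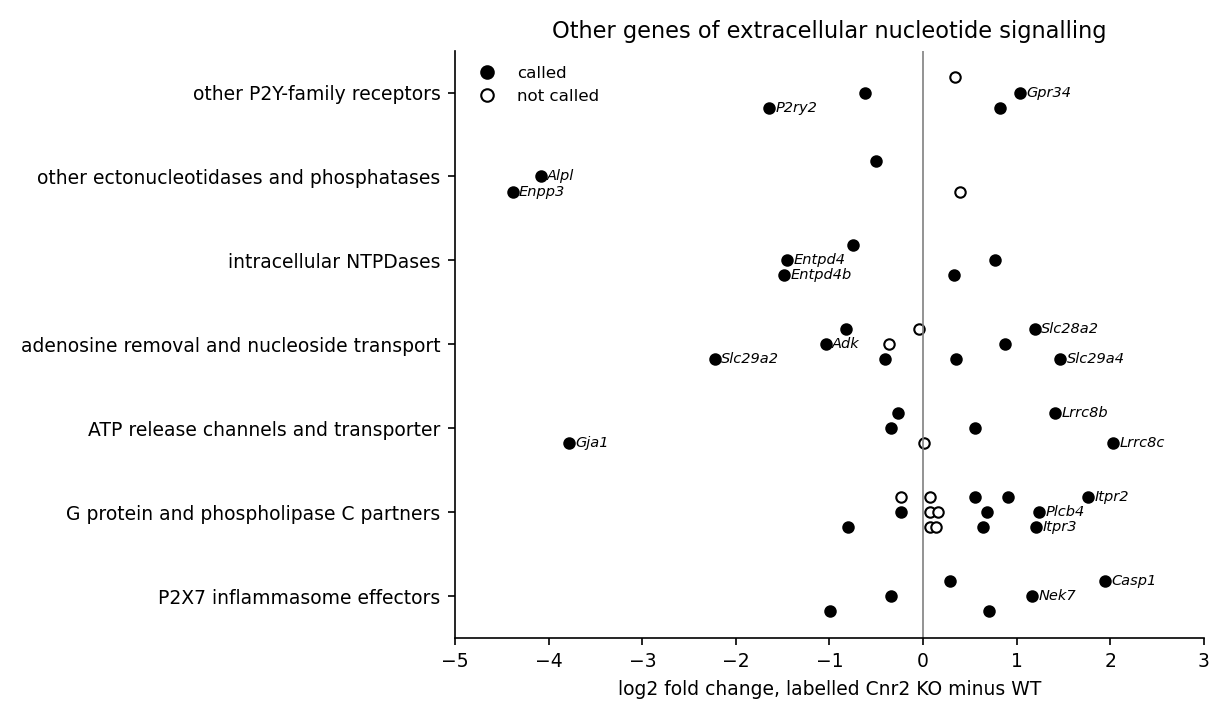
Log2 fold change of each tested gene of the lists around the 10 genes, chosen with earlier results known (libraries labelled Cnr2 KO over WT), with filled points for genes called at an edgeR adjusted p under 0.05 and names for those of at least 2-fold. Both directions occur in 6 of the 7 lists. In the ectonucleotidase list the called genes all lie left of 0, and Alpl and Enpp3 passed the filter on low counts only through WT.

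The other ectonucleotidases and phosphatases were low and fell where they were called. Of 8 listed, 4 were tested, and 3 were lower and 0 higher, against 33.2% and 33.1% of all tested genes. Alpl and Enpp3 passed the filter on low counts only through WT, the group where they were higher. Alpl, tissue-nonspecific alkaline phosphatase, which can take AMP to adenosine, had 18, 171 and 28 counts in WT and 2, 2 and 0 in the KO-labelled libraries (adjusted p = 8.07e-06), a ratio of scaled counts of 18.3 with a 95% counting interval of 7.03 to 67.6. Enpp3, which cuts ATP and marks basophils and mast cells, had 19, 108 and 11 counts in WT and 0, 0 and 2 in the KO-labelled libraries (adjusted p = 6.62e-05), a ratio of 23.2 with an interval of 6.31 to 193.6. Both intervals cover counting error only. Enpp1, which cuts ATP to AMP and pyrophosphate, fell from 11.2 ± 2.07 to 8.08 ± 2.40 CPM (adjusted p = 0.0155), and was no longer called without WT replicate 2 or without replicate 1 or 3 of the KO-labelled libraries (log2 fold change -0.33, -0.37 and -0.40). Acpp stood at 4.65 ± 0.527 and 6.21 ± 1.92 CPM (adjusted p = 0.0854), and passed without replicate 2 of the KO-labelled libraries (log2 fold change 0.60).

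Of the 5 intracellular relatives of CD39, which act on nucleotides in the Golgi and endoplasmic reticulum, 2 rose and 3 fell. Of all tested genes, 33.1% were called higher and 33.2% lower. Entpd4 and Entpd4b fell 2.73-fold and 2.80-fold (adjusted p = 2.28e-14 and 1.22e-14). These 2 have nearly equal and often fractional counts, as near-identical copies do, so their reads cannot be told apart and they are best read as one. Entpd6 fell 1.67-fold, and Entpd5 rose from 34.2 ± 1.96 to 58.0 ± 1.54 CPM (adjusted p = 9.61e-09).

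Genes that remove adenosine or carry nucleosides also split, with 4 higher, 4 lower and 2 not called of 10 tested. Over all tested genes, 66.3% were called, 33.1% higher and 33.2% lower. Adk, the kinase that returns adenosine to AMP inside the cell, fell from 85.9 ± 5.88 to 41.7 ± 3.69 CPM (adjusted p = 2.78e-10). The equilibrative transporters Slc29a1 and Slc29a2 fell 1.77-fold and 4.68-fold (adjusted p = 3.61e-10 and 1.46e-07). Ada, the deaminase that turns adenosine into inosine, rose 1.27-fold (adjusted p = 1.64e-04), and Pnp, which acts on inosine, fell 1.33-fold. Slc29a4 and Slc28a2 rose 2.76-fold and 2.29-fold from 0.494 ± 0.0620 and 0.785 ± 0.323 CPM. Slc28a2 was no longer called without WT replicate 2 (log2 fold change 0.90) or without replicate 2 of the KO-labelled libraries (0.97).

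Genes of ATP release gave 3 higher, 3 lower and 1 not called of 7 tested, where 66.3% of all tested genes were called. Gja1, the gap junction protein connexin 43, fell from 8.95 ± 0.566 to 0.639 ± 0.0742 CPM, 13.8-fold (adjusted p = 1.10e-11). Panx1, the pannexin channel through which ATP leaves cells, fell 1.27-fold (69.5 ± 0.319 to 54.7 ± 1.29 CPM, adjusted p = 4.34e-05). Subunits of the volume-regulated anion channel rose: Lrrc8c 4.09-fold, Lrrc8b 2.65-fold and Lrrc8d 1.47-fold (adjusted p = 2.03e-15, 4.31e-12 and 1.62e-08). Lrrc8a, the subunit that channel needs, stood at 3.80 ± 0.198 and 3.82 ± 2.12 CPM and did not pass (adjusted p = 0.967).

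The list of G proteins, phospholipase C enzymes and calcium release channels through which P2Y and adenosine receptors act held 15 tested genes. Of these, 7 rose, 2 fell and 6 did not pass, so 60% were called against 66.3% of all tested genes. Gnas and Gnai2, which encode G proteins that raise and lower cyclic AMP, rose 1.47-fold and 1.61-fold. Gnaq and Gna11, through which P2ry1 is known to act, stood at 8.11 ± 1.16 and 18.1 ± 2.89 CPM in WT and 8.60 ± 0.617 and 20.6 ± 3.00 CPM in the KO-labelled libraries (adjusted p = 0.673 and 0.233). Downstream of them Plcb4, a phospholipase C, rose 2.37-fold, and the calcium release channels Itpr2 and Itpr3 rose 3.38-fold and 2.31-fold (adjusted p = 1.68e-11, 1.63e-14 and 1.65e-12). Another such channel, Itpr1, fell from 126.5 ± 11.3 to 107.0 ± 8.3 CPM (edgeR adjusted p = 4.43e-03). Gna13, a G protein, fell from 323 ± 14.7 to 185 ± 1.79 CPM (edgeR adjusted p = 2.17e-11). Plcb3, another phospholipase C, stood at 65.8 ± 2.68 and 72.0 ± 2.41 CPM and did not pass (edgeR adjusted p = 0.0588).

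Of 6 tested genes that act with or after P2X7, 4 rose and 2 fell, against 33.1% and 33.2% of all tested genes. Casp1, the inflammasome protease, rose from 8.68 ± 0.874 to 33.5 ± 3.10 CPM, 3.84-fold (adjusted p = 3.63e-12), Nek7, which binds NLRP3, rose 2.25-fold, Pycard, the adaptor, 1.63-fold and Gsdmd, the pore-forming gasdermin D, 1.22-fold (adjusted p = 1.50e-13, 6.46e-07 and 1.51e-03). Nlrp3, the sensor itself, fell from 27.1 ± 2.11 to 13.6 ± 1.44 CPM (adjusted p = 4.56e-08), and Panx1, named above, is also on this list. Il1b and Il18, the cytokines that caspase 1 cuts, were not analysed here.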

How the data were processed

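The authors deposited expected counts, which are estimates with some fractions and no scaling between libraries. The submitters' processing notes name Partek 10.0, STAR 2.7.8, DESeq2 and mm10 without saying which did what; how reads were counted, and whether by strand, is not given in the sources used here. Values were rounded to whole counts. Library totals were 17867541 to 129617689 counts, which limits precision most for genes with few counts. edgeR 4.0.16 (R 4.3.3; quasi-likelihood test, TMM scaling, filterByExpr with minimum count 10 and total 15, genotype as the only term) was fitted to 12150 of 16588 genes, with Benjamini-Hochberg adjustment over all of them, and was tested on simulated data. SE is the absolute log2 fold change over the square root of F. Each library was counted as 1 replicate: no pair within a group agreed within counting noise (chi-square of 4.15 to 8.07 per gene), which bears only on duplicate deposits of a library, not on separate animals.

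Positions, exon lengths and overlaps are from GENCODE M21 (GRCm38), which matched 16233 table names, 16140 with the same start. The 10 genes and all lists were chosen with earlier results of these data known. Named besides the 10 genes are Cnr2, list genes called with at least a 2-fold difference, up to 2 more per list with the highest level, and the 3 genes most like P2ry1 and Adora2a. Other list genes named (P2ry10b, P2ry6, P2ry12, P2rx1, P2rx3, Ada, Lrrc8a, Gnaq, Gna11, Gna13, Itpr1, Plcb3, Pycard, Nlrp3, Art4) and the markers Thy1, Krt8, Krt18, Mcpt8 and Zbtb46 were chosen after their values were seen. Alternatives were DESeq2 size factors, no filter, a stricter filter, a replicate block, DESeq2 1.42.0, limma-voom (limma 3.58.1) with quality weights, WT replicate 2 thinned to the mean depth of the others, leaving out each library, another gene length and another measure of likeness.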

Additional observations from a re-analysis of the deposited data

How the results depend on the processing

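Over 13 alternatives none of the 10 genes changed direction. Their log2 fold changes moved by less than the spread between libraries in 125 of 130 cases; the other 5 were P2ry1 without WT replicate 2 (4.43) and with it thinned (4.67), P2rx7 and Cd38 without WT replicate 2 (2.91 and 2.03) and Entpd1 without replicate 3 of the KO-labelled libraries (0.02). The cause was not tested. With DESeq2 size factors 6 of the 10 genes were higher and 2 lower without overlap, the counts found with TMM. Of the other listed genes, 21 to 23 were called higher and 16 to 19 lower. Among genes tested in both fits, calls were lost in 7 and gained in 1 of 661 cases, all given in the report except Slc17a9 (log2 fold change -0.27), lost without replicate 1 or 2 of the KO-labelled libraries (-0.24 and -0.19). The stricter filter left Alpl and Enpp3 untested. Of genes tested only without the filter, Art4, with 3 counts in WT and 21 in the other group, was called higher (adjusted p = 3.19e-03, and 2.20e-03 by DESeq2) and P2ry12 lower (0.0315, but 0.0673 by DESeq2). Over all genes, 3749 to 4104 were called higher and 3771 to 4368 lower.

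The replicate numbers are not known to pair libraries. Deviations of same-numbered libraries correlated at 0.123, 0.0293 and 0.0888. Those of differently numbered libraries correlated at -0.108 to 0.0175, below each same-numbered pair. Deviations were taken from group means, so positive values in same-numbered pairs force the others lower on average. The lower values of the others are therefore no separate sign of pairing. With a replicate block, 4061 genes were called higher and 4113 lower, against 4019 and 4034 without it, and 22 and 18 of the other listed genes in both fits. The block changed no call among the listed genes. With the longest transcript as length, the mean ratio of P2rx4 to P2rx7 was 86.6 in WT and 7.44 in the KO-labelled libraries, that of Adora2a to Adora2b 0.697 and 0.481, and that of Entpd1 to Nt5e 0.718 and 0.193 (1.17 and 0.315 with merged exons). Low depth limits P2rx7, P2ry1, Nt5e and Entpd1, with 11 to 53, 37 to 131, 39 to 384 and 43 to 225 counts in WT libraries.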
